A study of Mus musculus with 2 samples.

Results

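Natural killer (NK) cells were looked for in single-cell libraries of subcutaneous tumours grown from LLC, the Lewis lung carcinoma line of the mouse. One library came from tumours of mice given an antibody against PD-1, the inhibitory receptor of lymphocytes, and the series text says that cells surviving at day 7 of that treatment were collected. The other library, called control here, is described by the sample labels as treated with an IgG2a isotype antibody, although the series text speaks of control cells as untreated. The strain, age and sex of the mice, the number of mice per library and the collection time of the control tumours are not given in the sources used here. With 1 library per group no difference has a replicate check, so no test was made, and every interval below covers counting error only.

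A barcode counted as an NK member when it had at least 300 genes, at most 20% mitochondrial unique molecular identifiers (UMIs), under 500 CPM (UMIs per 1000000 UMIs of the barcode) summed over the tumour genes Hmga2, Igf2bp1, Igf2bp2 and Wnt7b, at least 2 UMIs over Ncr1, Klrb1c, Klre1, Klra4 and Klra8, and 0 UMIs of the T cell genes Cd3d, Cd3e and Cd3g and of the macrophage gene C1qa. This gave 122 members of 9422 barcodes in anti-PD-1 and 90 of 8395 in control, 212 of 17817 in all. The 5 NK genes, and the genes that kept barcodes out, are measured values of these same cells. Members were chosen by them, so their levels are a description and no result.

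NK cells are lymphocytes of the innate immune system that kill stressed, infected or transformed cells without an antigen receptor. They weigh signals from activating receptors against signals from inhibitory receptors that read MHC class I on the target, and then release granules in which perforin opens a path for granzymes, a family of serine proteases. Interleukin 15 keeps them alive, interleukins 12 and 18 drive them to make interferon gamma, and the T-box factors Eomes and T-bet set their identity. Type 1 innate lymphoid cells (ILC1) share several of these genes, Ncr1 and Klrb1c among them.

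The NK genes of the rule were each present in both libraries. Ncr1, which encodes the activating receptor NKp46, had 190 UMIs in anti-PD-1 and 119 UMIs in control members. Klrb1c, which encodes NK1.1, had 88 UMIs in anti-PD-1 and 58 UMIs in control, and Klre1, a lectin-like receptor gene, had 142 UMIs in anti-PD-1 and 74 UMIs in control. The Ly49 receptor genes Klra4 and Klra8 had 149 UMIs in anti-PD-1 and 128 UMIs in control, and 96 UMIs in anti-PD-1 and 70 UMIs in control. Members held a median of 4 such UMIs in anti-PD-1 and 3 in control, and the highest member held 18 in anti-PD-1 and 19 in control. Exactly 2 UMIs, the least the rule allows, were held by 31 members in anti-PD-1 and 31 in control, and 134 barcodes in anti-PD-1 and 104 in control that met the other conditions had exactly 1 and stayed out. Of the barcodes under the tumour-gene limit with at least 2 NK-gene UMIs, a Cd3 UMI was held by 9 in anti-PD-1 and 74 in control, and a C1qa UMI by 41 in anti-PD-1 and 56 in control, some holding both. The tumour-gene limit kept out 376 in anti-PD-1 and 247 in control.

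Depth split the members into a large group of shallower barcodes and a small group of deep barcodes. The median member had 1841 UMIs and 1328 genes in anti-PD-1, against 1755 UMIs and 1322 genes in control. Members with over 3 times the median UMIs of their library, called deep barcodes from here on, numbered 17 in anti-PD-1 and 22 in control and held 49.8% of the anti-PD-1 and 74.7% of the control members' UMIs. The other members held 50.2% of member UMIs in anti-PD-1 and 25.3% in control. The all-member CPM of a gene found only in these other members is thus lowered more in control. Its all-member log2 ratio then reads higher than its ratio without deep barcodes. Klra4 gave 84.6% of the deep barcodes' NK-gene UMIs in anti-PD-1 and 56.6% in control. Among the other members it gave 18.5% in anti-PD-1 and 22.1% in control. In barcodes with at least 500 CPM of the tumour genes, called tumour-marker barcodes, Klra4 stood at 30.5 CPM in anti-PD-1 and 32.1 CPM in control, while the other NK genes of the rule stood at 3.64 CPM or less.

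Most deep barcodes also lacked cytotoxic transcripts. A UMI of Gzma, Gzmb, Prf1 or Nkg7 was found in 5 of 17 deep barcodes in anti-PD-1 and 8 of 22 in control, against 102 of 105 other members in anti-PD-1 and 61 of 68 in control. Those 4 genes summed to 928 CPM in anti-PD-1 and 795 CPM in control deep barcodes, and to 21796 CPM in anti-PD-1 and 10667 CPM in control for the rest. Every deep barcode had a UMI of a tumour gene, as did 12 of 105 other members in anti-PD-1 and 6 of 68 in control. The NK label therefore held for most of the shallower members and went against the markers of most deep barcodes. Some shallower members also had 0 UMIs of those 4 genes, a larger part in control than in anti-PD-1. Leaving out deep barcodes may thus not remove every such barcode, and the effect of those that remain was not tested. It also removes some barcodes rich in NK transcripts. Control deep barcodes with 17, 14 and 9 NK-gene UMIs held 25, 39 and 13 Prf1 UMIs. An anti-PD-1 deep barcode with 3 NK-gene UMIs held 119 Gzmb and 18 Prf1 UMIs. The set without deep barcodes is therefore not a purified NK set. The main values are given both for all members and for the members without deep barcodes.

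**Figure D1:**
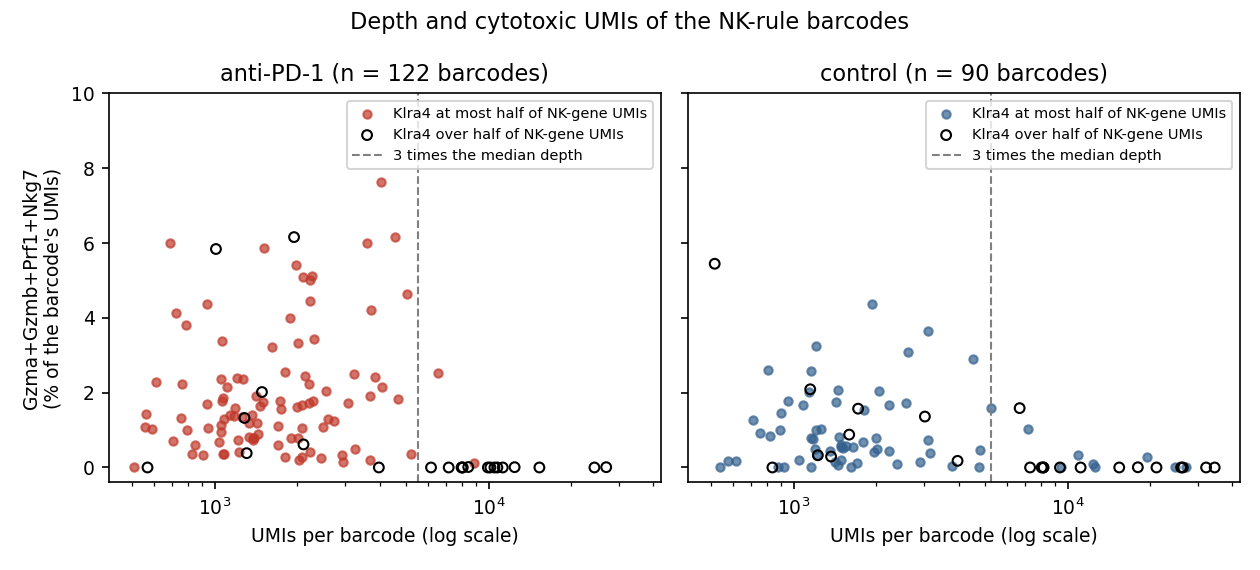
Each point is 1 member: UMIs per barcode (x, log scale) against the summed share of Gzma, Gzmb, Prf1 and Nkg7 in its UMIs (y, percent), anti-PD-1 on the left and control on the right. Open circles are members in which Klra4 gave most NK-gene UMIs, and the dashed line is 3 times the median depth; to its right 17 anti-PD-1 and 22 control members stand mostly at or near 0%.

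NK members made up a small share of both libraries. The share was 1.29% of barcodes in anti-PD-1 (exact binomial 95% interval 1.08% to 1.54%) and 1.07% in control (0.863% to 1.32%), a difference of 0.223 percentage points with a 95% interval of -0.0985 to 0.541 that includes 0. Without deep barcodes the shares were 1.11% in anti-PD-1 and 0.810% in control, a difference of 0.304 points (0.0152 to 0.593). The direction depended on the unequal Cd3 condition: with Cd3 UMIs allowed and C1qa still at 0, the rule gave 125 barcodes (1.33%) in anti-PD-1 and 134 (1.60%) in control, a difference of -0.270 points (-0.630 to 0.0830). Of barcodes under the tumour-gene limit, members were 4.21% of 2900 in anti-PD-1 and 2.95% of 3052 in control. The libraries shared 107 barcode sequences; 1 anti-PD-1 and 2 control members had a barcode also seen in the other library, and 0 were members in both.

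Outside the genes of the rule, the genes most concentrated in the members included many that are known from NK cells. Ranked by the lower of both libraries' ratios of member CPM to the CPM of all other barcodes, the leading 15 were Klrb1f, Klra7, Klri2, Klrg1, Gzma, Gzmc, Eomes, Trbc1, Clnk, Emid1, Txk, Samd3, Lax1, Myb and Cldnd2. Clnk, an adaptor of immune receptor signalling, stood 172-fold above other barcodes in anti-PD-1 and 65.4-fold in control. Eomes, the T-box factor of NK cells, stood 141-fold above them in anti-PD-1 and 48.5-fold in control. Txk, a Tec-family kinase, had 571 CPM in anti-PD-1 and 273 CPM in control members. Trbc1, a constant segment of the T cell receptor beta chain, had 948 CPM in anti-PD-1 and 558 CPM in control members, and its sister gene Trbc2 and the alpha chain gene Trac are counted with the T cell list below. Klra7 is a Ly49 paralog of Klra4 with 79.5% identity over the coding sequence. UMIs of such close relatives may not be fully separable, which was not tested, as no probe sequence was examined.

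Granzyme genes differed between the libraries in opposite directions, and these directions held without deep barcodes. Gzma, which encodes the tryptase granzyme A (chr13:113093825-113100981, coordinates here and below from GENCODE M21 on GRCm38, the mm10 build), had 995 UMIs in anti-PD-1 and 291 UMIs in control members, which is 2571 CPM in anti-PD-1 and 611 CPM in control. Its log2 ratio of anti-PD-1 over control was 2.07 (95% interval 1.88 to 2.27). Without deep barcodes Gzma had 5001 CPM in anti-PD-1 and 2122 CPM in control and a log2 ratio of 1.24 (95% interval 1.04 to 1.44). Granzyme B, which cleaves after aspartate and triggers caspases, is encoded by Gzmb (chr14:56258838-56262260). Gzmb had 2278 UMIs in anti-PD-1 and 720 UMIs in control members, or 5886 CPM in anti-PD-1 and 1511 CPM in control, a log2 ratio of 1.96 (95% interval 1.84 to 2.09). Without deep barcodes it had 11089 CPM in anti-PD-1 and 5006 CPM in control, a log2 ratio of 1.15 (95% interval 1.02 to 1.28). Prf1, the pore-former perforin, had 1747 CPM in anti-PD-1 and 663 CPM in control members with a log2 ratio of 1.40, and 3379 CPM in anti-PD-1 and 1956 CPM in control without deep barcodes, 0.79 (95% interval 0.57 to 1.01). A stricter rule, which also asked for 0 UMIs of further T cell, myeloid, B cell and tumour genes, left 62 anti-PD-1 and 38 control members. There the log2 ratios were 0.76 for Gzma and 0.99 for Gzmb, while that of Prf1 was 0.03.

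Genes of the granzyme cluster on chromosome 14 next to Gzmb did not all follow it. Gzmc read higher in anti-PD-1 over all members, with a log2 ratio of 0.77 (95% interval 0.68 to 0.85), but not without deep barcodes, and it stood at -0.52 under the stricter rule. Gzmc had 7194 CPM in anti-PD-1 and 4227 CPM in control and, without deep barcodes, 12634 CPM in anti-PD-1 and 11902 CPM in control, a log2 ratio of 0.09 (95% interval -0.01 to 0.18). Gzmf (chr14:56205263-56211417) had 304 UMIs in anti-PD-1 and 2623 UMIs in control members, or 786 CPM in anti-PD-1 and 5503 CPM in control, a log2 ratio of -2.81 (95% interval -2.98 to -2.64); without deep barcodes it had 1375 CPM in anti-PD-1 and 5901 CPM in control and a log2 ratio of -2.10 (95% interval -2.31 to -1.90). Gzmg had 57 UMIs in anti-PD-1 and 464 UMIs in control members, a log2 ratio of -2.72, and 36 UMIs in anti-PD-1 and 304 UMIs in control without deep barcodes, -3.76. The log2 ratio of Gzmd was -0.37 in all members and -0.998 without deep barcodes, and that of Gzme -0.04 and -0.45. All 4 genes from Gzmd to Gzmg thus had negative ratios, with and without deep barcodes, and Gzmf and Gzmg were lower by over 2-fold. These genes are close copies, with 93.3% coding identity between Gzmd and Gzme and 86.9% between Gzmf and Gzmg, while Gzmb and Gzmf share 68.4%. How well UMIs separate among these copies was not tested, so their split is uncertain.

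Few members carried the Gzmf signal. The 2 highest control members held 871 and 790 of the 2623 Gzmf UMIs, together 63.3%, and both were deep barcodes; the 2 highest anti-PD-1 members held 116 and 68 of 304. At least 10 Gzmf UMIs were found in 7 of 122 anti-PD-1 and 10 of 90 control members, and in 6 of 105 anti-PD-1 and 7 of 68 control members without deep barcodes. A Gzmf UMI of any number was found in 9.84% in anti-PD-1 and 30% in control members, against 10.2% in anti-PD-1 and 44.9% in control tumour-marker barcodes, at median depths of 12104 UMIs in anti-PD-1 and 13315 in control. At an equal depth of 1000 UMIs the expected share was 9.72% in anti-PD-1 and 23.5% in control members, and 1.22% in anti-PD-1 and 8.89% in control tumour-marker barcodes. Gzmf was also lower in anti-PD-1 outside the members, at 18.1 CPM in anti-PD-1 and 114 CPM in control tumour-marker barcodes, and at 31.3 CPM in anti-PD-1 and 162 CPM in control gated macrophages; the part of such RNA in the members' difference was not tested.

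Gzmb, in contrast, was spread over most members of both libraries, and Gzma was found in 84 of 122 anti-PD-1 and 46 of 90 control members. Gzmb was found in 85.2% in anti-PD-1 and 58.9% in control members, against 15.98% in anti-PD-1 and 23.5% in control tumour-marker barcodes, which were several times deeper. Thinned to 1000 UMIs per member (103 anti-PD-1 and 76 control members, with 19 anti-PD-1 and 14 control members too shallow), the shares were 80.6% in anti-PD-1 and 55.3% in control for Gzmb, 61.2% in anti-PD-1 and 38.2% in control for Gzma and 68.0% in anti-PD-1 and 44.7% in control for Prf1. The median member had 7 Gzmb UMIs in anti-PD-1 and 1.5 in control. Without deep barcodes the median was 10 in anti-PD-1 and 3 in control. Without deep barcodes, Gzmb and Prf1 were found together in 89 of 105 anti-PD-1 members (84.8%, 76.4% to 91.0%) and 37 of 68 control members (54.4%, 41.9% to 66.5%). Gzmb and Gzma were found together in 75.2% of anti-PD-1 (65.9% to 83.1%) and 47.1% of control members (34.8% to 59.6%).

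**Figure D2:**
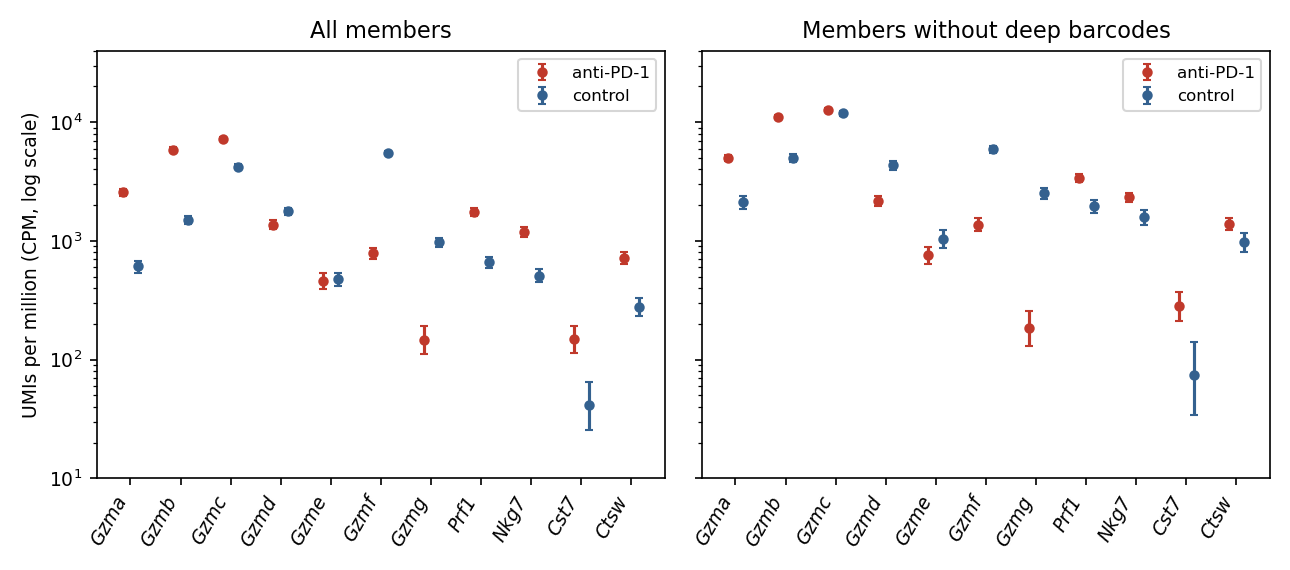
Level of granule genes in CPM (log scale), summed over the members of each library, anti-PD-1 in red and control in blue, with exact Poisson 95% intervals, for all members (left) and without deep barcodes (right). Gzma, Gzmb and Prf1 stand higher in anti-PD-1 and Gzmf and Gzmg lower in both panels, while Gzmc comes together on the right.

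**Figure D3:**
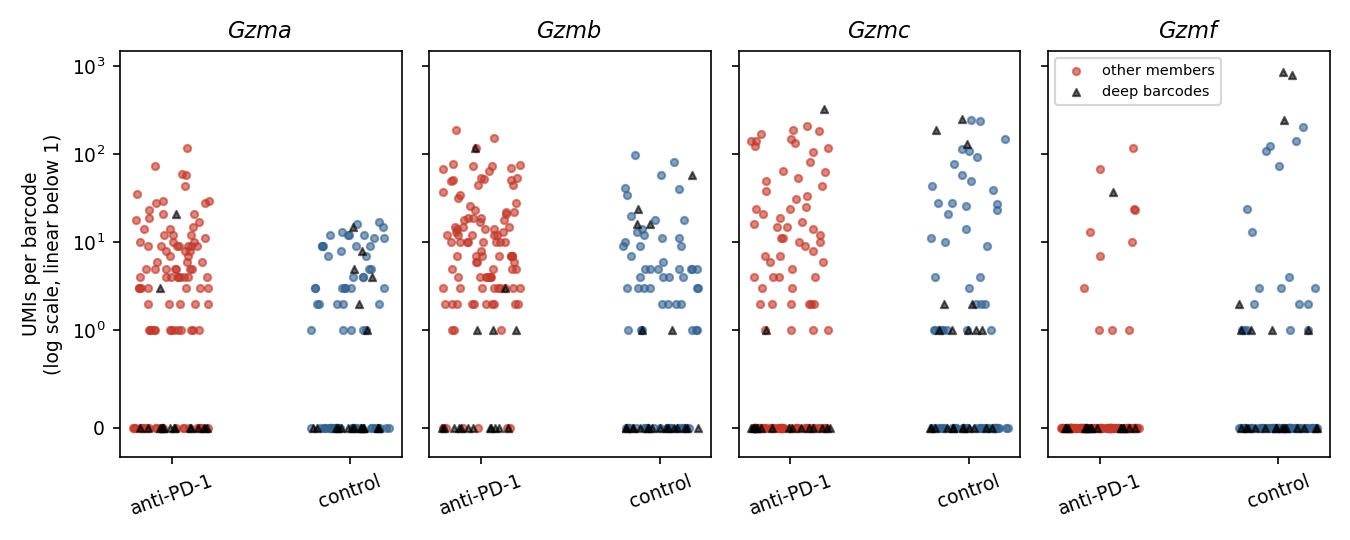
UMIs per member of Gzma, Gzmb, Gzmc and Gzmf (log scale, linear below 1), anti-PD-1 left and control right in each panel; triangles are deep barcodes and sideways jitter carries no value. Gzmb is spread over most members, and Gzma over 84 of 122 anti-PD-1 and 46 of 90 control members. Gzmf lies at 0 in most and reaches 871 UMIs in 1 control member.

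The promoters of Ncr1, of the 2 granzyme genes higher in anti-PD-1 and of Gzmf are shown because RUNX and T-box factors are known regulators of NK genes and because Gzmb and Gzmf lie in the same cluster but differed in opposite directions. Each run is the 250 bases before the transcription start in RefSeq (GRCm38.p6), read 5′ to 3′ on the gene's strand, with matches to the RUNX core ACCACA on either strand in capitals.
Ncr1 (chr7:4337465-4337714, plus strand): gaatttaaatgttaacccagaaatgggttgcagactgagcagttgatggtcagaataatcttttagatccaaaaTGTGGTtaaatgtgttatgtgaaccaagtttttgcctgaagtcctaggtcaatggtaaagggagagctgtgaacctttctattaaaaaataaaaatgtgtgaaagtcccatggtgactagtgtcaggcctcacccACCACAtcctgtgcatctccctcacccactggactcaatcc
Gzma (chr13:113100982-113101231, minus strand): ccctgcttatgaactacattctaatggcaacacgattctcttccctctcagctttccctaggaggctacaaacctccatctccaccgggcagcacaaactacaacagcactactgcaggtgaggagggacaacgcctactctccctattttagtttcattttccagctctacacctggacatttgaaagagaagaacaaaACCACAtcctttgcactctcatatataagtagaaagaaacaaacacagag
Gzmb (chr14:56262335-56262584, minus strand): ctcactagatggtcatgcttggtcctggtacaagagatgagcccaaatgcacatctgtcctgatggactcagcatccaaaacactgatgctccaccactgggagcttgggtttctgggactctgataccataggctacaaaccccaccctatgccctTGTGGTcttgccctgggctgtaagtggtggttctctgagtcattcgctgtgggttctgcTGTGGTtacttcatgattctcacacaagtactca
Gzmf (chr14:56211408-56211657, minus strand): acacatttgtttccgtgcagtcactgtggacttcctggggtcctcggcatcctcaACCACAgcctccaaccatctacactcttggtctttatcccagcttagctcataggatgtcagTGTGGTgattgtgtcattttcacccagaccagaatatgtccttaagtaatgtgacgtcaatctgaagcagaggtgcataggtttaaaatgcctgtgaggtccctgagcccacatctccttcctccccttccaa
Ncr1, Gzmb and Gzmf held 2 RUNX matches each and Gzma held 1. Of the promoters scanned but not printed, Gzmc, Gzmd and Gzmg held 2 each and Prf1 held 1. Klra4 and Klra8, NK genes of the rule, held 0, the latter in both of its entries. Of 27025 mouse promoters of this length, 14.2% held at least 1 match. The T-box letters TCACACC, in 3.31% of all promoters, were in none of these windows, and an AP-1 match (TGANTCA, 6.87% of promoters) was in that of Gzmb and in none of the other 3 printed. Gzmb and Gzmf, which differed in opposite directions, had the same number of RUNX matches, and these letters say nothing of whether a factor was bound.

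Of the other granule genes, Cst7 differed by as much without deep barcodes as with them, while the ratios of Nkg7, Serpinb9, Ctsw and Fasl were smaller there. Nkg7, a granule membrane protein needed for degranulation, had 1194 CPM in anti-PD-1 and 509.8 CPM in control members, and 2328 CPM in anti-PD-1 and 1583 CPM in control without deep barcodes, a log2 ratio of 0.56 (95% interval 0.31 to 0.81). Cst7, which encodes the cathepsin inhibitor cystatin F, had 55 UMIs in anti-PD-1 and 9 UMIs in control without deep barcodes, a log2 ratio of 1.92 (95% interval 0.90 to 3.13), close to the 1.84 of all members. Serpinb9, whose product shields the cell from its own granzyme B, had log2 ratios of 1.11 in all members and 0.72 without deep barcodes. Ctsw, a cathepsin of cytotoxic lymphocytes, had 1.36 with and 0.51 without them, and Fasl, the death ligand, 1.03 and 0.24. Of 25 granule genes 20 were measured, which means at least 50 UMIs over both libraries. Of those 8 were higher by over 2-fold in anti-PD-1, beside 3.46% of all 5111 measured genes, and 2 were lower, beside 3.25%. The list median was 0.72 beside 0.03 for all measured genes. Without deep barcodes, 19 were measured, 3 (Gzma, Gzmb and Cst7) were higher by over 2-fold beside 2.97% of 1413 genes, and 2 (Gzmf and Gzmg) were lower beside 1.91%, with a median of 0.14 beside 0.06.

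Activating receptors and their adaptors read higher in anti-PD-1 over all members and close to level without deep barcodes. Klrk1, which encodes NKG2D, the receptor for stress ligands, had 419 CPM in anti-PD-1 and 176 CPM in control members, and 824 CPM in anti-PD-1 and 647 CPM in control without deep barcodes, a log2 ratio of 0.35 (95% interval -0.05 to 0.76). Cd244a (2B4) had log2 ratios of 0.83 in all members and -0.09 without deep barcodes, Klrb1f 0.97 and -0.04, and Slamf7 1.20 and 0.43. Fcgr3, the Fc receptor CD16 of antibody-dependent killing, went the other way with 14 UMIs in anti-PD-1 and 38 UMIs in control members, a log2 ratio of -1.14 (95% interval -2.14 to -0.22). It had 13 UMIs in anti-PD-1 and 20 UMIs in control without deep barcodes, too few to count as measured. Of 12 activating receptors outside the rule, 11 were in the files and 5 were measured, with a median of 0.97. Of the 5, 2 read higher in anti-PD-1 by over 2-fold, beside 3.46% of all measured genes, and 1 read lower, beside 3.25%. Without deep barcodes 4 were measured, 0 passed 2-fold either way and the median was 0.15.

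The signalling adaptors behaved alike. Fcer1g, the gamma chain that carries NKp46 signals, had 897 CPM in anti-PD-1 and 455 CPM in control members, and 1694 CPM in anti-PD-1 and 1359 CPM in control without deep barcodes, a log2 ratio of 0.32 (95% interval 0.04 to 0.60). Tyrobp, which encodes DAP12, the adaptor of the activating Ly49 receptors, had log2 ratios of 0.64 and 0.04 with and without deep barcodes. The kinase genes Zap70 and Syk had 0.94 and 1.12 in all members, and 0.04 and 0.35 without deep barcodes. All 6 measured adaptors were above 0 in all members (median 0.80), and 4 of 6 without deep barcodes (median 0.04). Of all measured genes, 2679 of 5111 were above 0 in all members, and 781 of 1413 without deep barcodes. Lat, an adaptor of T cell receptor signalling, was low, with 6 UMIs in anti-PD-1 and 9 UMIs in control members.

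The list of inhibitory receptors gave no common direction once deep barcodes were left out. Klrd1, which encodes CD94, the partner of NKG2A, had 512 CPM in anti-PD-1 and 273 CPM in control members, and 1015 CPM in anti-PD-1 and 912 CPM in control without deep barcodes, a log2 ratio of 0.15 (95% interval -0.19 to 0.50). Klrc1, which encodes NKG2A, had 43 UMIs in anti-PD-1 and 37 UMIs in control members, with log2 ratios of 0.52 and, without deep barcodes, -0.12. Lilrb4a, an inhibitory immunoglobulin-like receptor gene, had 1.01 and 0.67 (95% interval 0.07 to 1.31). The list also held Klri2, whose place among inhibitory receptors is uncertain. Klri2 had 0.01 and -0.80 (95% interval -1.50 to -0.11). Klrb1b, the inhibitory relative of NK1.1, had 0.36 and -0.47 (95% interval -0.92 to -0.02). The median over the 8 measured genes of the list, Klri2 included, was 0.44 in all members and -0.03 without deep barcodes.

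Checkpoint receptors were scarce in the members. Pdcd1, the gene of the PD-1 receptor that the antibody targets, had 14 UMIs in anti-PD-1 and 2 UMIs in control members, and 4 anti-PD-1 and 2 control members held them all. Its log2 ratio turned to -0.85 with at least 1 NK-gene UMI and to -1.43 with Cd3 UMIs allowed. Tigit had 1 UMI in anti-PD-1 and 1 UMI in control members. Lag3 had 155 CPM in anti-PD-1 and 134 CPM in control, a log2 ratio of 0.21 (95% interval -0.33 to 0.74), and -0.19 (95% interval -0.79 to 0.43) without deep barcodes. Havcr2, which encodes TIM-3, had 14 UMIs in anti-PD-1 and 24 UMIs in control members, too few to be measured. Of these 4 genes, Lag3 was measured and the other 3 were not.

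Ccl4 and Ccl5 read lower and Xcl1 higher in anti-PD-1, at low counts. Xcl1, the chemokine lymphotactin that draws cross-presenting dendritic cells, had 235 CPM in anti-PD-1 and 75.5 CPM in control members, a log2 ratio of 1.64 (95% interval 1.07 to 2.24), and 458 CPM in anti-PD-1 and 298 CPM in control without deep barcodes, 0.62 (95% interval 0.05 to 1.22). Ccl4, an inflammatory chemokine, had 15 UMIs in anti-PD-1 and 44 UMIs in control members, with log2 ratios of -1.25 (95% interval -2.20 to -0.38) and, without deep barcodes, -2.23 (95% interval -3.27 to -1.29). Ccl5 had 40 UMIs in anti-PD-1 and 56 UMIs in control members, with -0.18 (95% interval -0.81 to 0.43) and, without deep barcodes, -1.03 (95% interval -1.69 to -0.38). Under the stricter rule Ccl4 turned to 2.49. Ifng, the interferon gamma gene, had 20 UMIs in anti-PD-1 and 12 UMIs in control members, in 12 anti-PD-1 and 3 control members, and a log2 ratio without deep barcodes of 0.05 (95% interval -1.05 to 1.22). Tnf had 2 UMIs in anti-PD-1 and 3 UMIs in control and Il10 had 0 UMIs in both libraries. Of 14 genes 7 were measured, with a median of 0.42, and 5 without deep barcodes, with a median of -0.02.

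Among receptors for the interleukins that sustain NK cells, Il2rb and Il2rg read higher in anti-PD-1, with and without deep barcodes. Il2rb, the beta chain shared by the interleukin 2 and 15 receptors, had 1018 UMIs in anti-PD-1 and 511 UMIs in control members, or 2631 CPM in anti-PD-1 and 1072 CPM in control, a log2 ratio of 1.29 (95% interval 1.14 to 1.45). Without deep barcodes it had 5145 CPM in anti-PD-1 and 3531 CPM in control, 0.54 (95% interval 0.38 to 0.71). Il2rg, the common gamma chain, had log2 ratios of 1.18 in all members and 0.89 (95% interval 0.54 to 1.25) without deep barcodes. Il12rb1 of the interleukin 12 receptor had 1.74 and 0.77 (95% interval 0.17 to 1.40), Il18r1 of the interleukin 18 receptor 1.45 and 0.52 (95% interval 0.02 to 1.04), and Il10ra 1.45 and 0.63 (95% interval 0.01 to 1.28). Stat4, which carries interleukin 12 signals, stood apart with 0.15 (95% interval -0.48 to 0.76) and, without deep barcodes, -0.82 (95% interval -1.46 to -0.18). The 18 measured genes of this list had a median of 0.45. Of the 18, 5 were higher by over 2-fold, beside 3.46% of all measured genes, and 0 were lower, beside 3.25%. Without deep barcodes 15 were measured, with a median of 0.27 and 0 past 2-fold.

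Transcription factors of the NK lineage were found in the members of both libraries. Eomes had 35 UMIs in anti-PD-1 and 25 UMIs in control members, with log2 ratios of 0.79 (95% interval 0.00 to 1.59) and, without deep barcodes, 0.44 (95% interval -0.45 to 1.40). Tbx21, which encodes T-bet, had 52 UMIs in anti-PD-1 and 28 UMIs in control members, with 1.19 (95% interval 0.50 to 1.91) and 0.40 (95% interval -0.33 to 1.17). Irf8, a factor of NK maturation and antiviral memory in the mouse, had 625 CPM in anti-PD-1 and 235 CPM in control members, and 1189.7 CPM in anti-PD-1 and 622 CPM in control without deep barcodes, a log2 ratio of 0.94 (95% interval 0.55 to 1.33). Id2, the repressor needed for innate lymphoid cells, had -0.04 without deep barcodes, Ets1 0.13 and Runx3 -0.39. All 10 measured factors were above 0 over all members (median 0.54), and 4 of 7 without deep barcodes (median 0.13). Over all measured genes, 2679 of 5111 were above 0, and 781 of 1413 without deep barcodes.

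Among maturation genes, Cd27 read higher in anti-PD-1 members. Cd27, a tumour necrosis factor receptor of less mature NK cells, had 41 UMIs in anti-PD-1 and 12 UMIs in control members, with log2 ratios of 2.07 (95% interval 1.12 to 3.14) and, without deep barcodes, 1.35 (95% interval 0.33 to 2.51). Klrg1, a receptor of terminally mature NK cells, had 34 UMIs in anti-PD-1 and 49 UMIs in control members, with -0.23 (95% interval -0.90 to 0.43) and 0.31 (95% interval -0.57 to 1.25). The Klrg1 ratio depended on which members were kept, at -1.47 with at least 3 NK-gene UMIs and -1.01 with at least 1. Thy1 had 0.18 and 0.82 (95% interval 0.44 to 1.20), and Emb, an immunoglobulin-family membrane protein, -0.17 and -1.03 (95% interval -1.56 to -0.50). Thinned to 1000 UMIs, Cd27 was found in 12.6% in anti-PD-1 and 7.89% in control members; unthinned, Cd27 was found in 21.3% in anti-PD-1 and 13.3% in control members, against 0.935% in anti-PD-1 and 2.84% in control tumour-marker barcodes.

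Integrins used to part NK cells from ILC1 gave few UMIs. Itga2, which encodes the NK integrin CD49b, had 12 UMIs in anti-PD-1 and 15 UMIs in control members, and Itga1, which encodes CD49a of ILC1, had 53 UMIs in anti-PD-1 and 59 UMIs in control, a log2 ratio of 0.15 (95% interval -0.42 to 0.71). Itgam, which encodes CD11b of mature NK cells, had 28 UMIs in anti-PD-1 and 30 UMIs in control members. A UMI of Itga1 was found in 18.9% in anti-PD-1 and 26.7% in control members and in 59.6% in anti-PD-1 and 53.4% in control tumour-marker barcodes. At an equal depth of 1000 UMIs the expected share was 8.01% in anti-PD-1 and 11.1% in control members. Tumour-marker barcodes had 8.77% in anti-PD-1 and 7.53% in control, so the anti-PD-1 members did not stand above them. Where the Itga1 UMIs of members and of tumour-marker barcodes came from was not tested. Of the other ILC1 genes, Cxcr6 had 2 UMIs in anti-PD-1 and 0 UMIs in control members, Il7r had 0 UMIs in anti-PD-1 and 4 UMIs in control and Tnfsf10, the TRAIL gene, 5 UMIs in anti-PD-1 and 8 UMIs in control. Among homing receptors Ccr2 had 633 CPM in anti-PD-1 and 294 CPM in control members, and 1205 CPM in anti-PD-1 and 1011 CPM in control without deep barcodes, a log2 ratio of 0.25 (95% interval -0.07 to 0.58). Itgb2, the common chain of the leukocyte integrins, had 1.13 and, without deep barcodes, 0.50 (95% interval 0.16 to 0.84). All 11 measured trafficking genes were above 0 over all members (median 1.02, 6 past 2-fold), and 8 of 9 without deep barcodes (median 0.28, 0 past 2-fold). Beside these, 2679 of all 5111 measured genes were above 0 and 3.46% were higher by over 2-fold. Without deep barcodes 781 of 1413 were above 0.

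Tnfrsf9 and Tnfrsf18 read higher and Zfp36 and Btg2 lower in anti-PD-1, with and without deep barcodes. Tnfrsf9, the activation receptor 4-1BB, had 1202 CPM in anti-PD-1 and 518 CPM in control members, and 2251 CPM in anti-PD-1 and 1442 CPM in control without deep barcodes, 0.64 (95% interval 0.39 to 0.90). Tnfrsf18, which encodes GITR, had log2 ratios of 1.55 and 0.79 (95% interval 0.10 to 1.53). Icos, another costimulator, had 0.40 and, without deep barcodes, -0.41. Of 10 measured activation and costimulation genes, 2 were higher by over 2-fold, beside 3.46% of all measured genes, and 2 were lower, beside 3.25%. The list had a median of 0.20 over the 10. Without deep barcodes its median was 0.21 over 5, with 0 past 2-fold. Zfp36, whose product destabilises cytokine mRNAs, had 35 UMIs in anti-PD-1 and 129 UMIs in control members, with -1.58 (95% interval -2.16 to -1.03) and, without deep barcodes, -1.81 (95% interval -2.73 to -0.94). Btg2, an antiproliferative gene of the same early response, had -1.11 (95% interval -1.67 to -0.58) and -1.22 (95% interval -1.87 to -0.58). Over immediate early and heat shock genes the median was -0.69 over 20 measured genes, 18 of them below 0 and 7 lower by over 2-fold. Of all 5111 measured genes, 2432 were below 0 and 3.25% were lower by over 2-fold. Without deep barcodes 8 genes of the list were measured, all 8 below 0, with a median of -0.12. Of these, 2 (Zfp36 and Btg2) were lower by over 2-fold. Of all 1413 genes measured there, 632 were below 0 and 1.91% were lower by over 2-fold. Under the stricter rule the list median turned to 0.63 and Zfp36 to 1.91.

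Interferon gamma response and glycolysis genes had medians below 0 in all members, which lay nearer 0 without deep barcodes. Of 21 measured interferon gamma response genes, 5 were lower by over 2-fold, beside 3.25% of all measured genes. The list had a median of -0.60 over the 21, and -0.26 over 12 genes without deep barcodes. Its median turned to 0.35 with members thinned to 1000 UMIs, to 0.22 over genes of at least 200 UMIs and to 0.058 without Klra4 in the rule. Cd274, the PD-L1 gene, had 34 UMIs in anti-PD-1 and 64 UMIs in control members, with log2 ratios of -0.61 (95% interval -1.26 to 0.01) and, without deep barcodes, -1.18 (95% interval -1.88 to -0.49). Type I interferon-stimulated genes had a median of 0.09 over 14 genes and -0.34 over 7, where Rsad2, the antiviral viperin gene, had -1.44 (95% interval -2.34 to -0.58). Hypoxia and glycolysis genes had a median of -0.42 over 17 genes and -0.08 over 7. Cell cycle genes had a median of 0.00 over 25 genes. Mki67, the proliferation marker, had a log2 ratio of 0.26 (95% interval -0.12 to 0.65) over all members. Without deep barcodes Mki67 had 42 UMIs in anti-PD-1 and 13 UMIs in control, a log2 ratio of 1.01 (95% interval 0.08 to 2.03). Only 2 cell cycle genes were measured there, too few for a list median. The Mki67 share of 32.0% in anti-PD-1 and 23.3% in control members lay below that of tumour-marker barcodes, 71.5% in anti-PD-1 and 67.9% in control. At an equal depth of 1000 UMIs the expected Mki67 share was 15.1% in anti-PD-1 and 10.7% in control members, and 20.3% in anti-PD-1 and 18.3% in control tumour-marker barcodes.

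**Figure D4:**
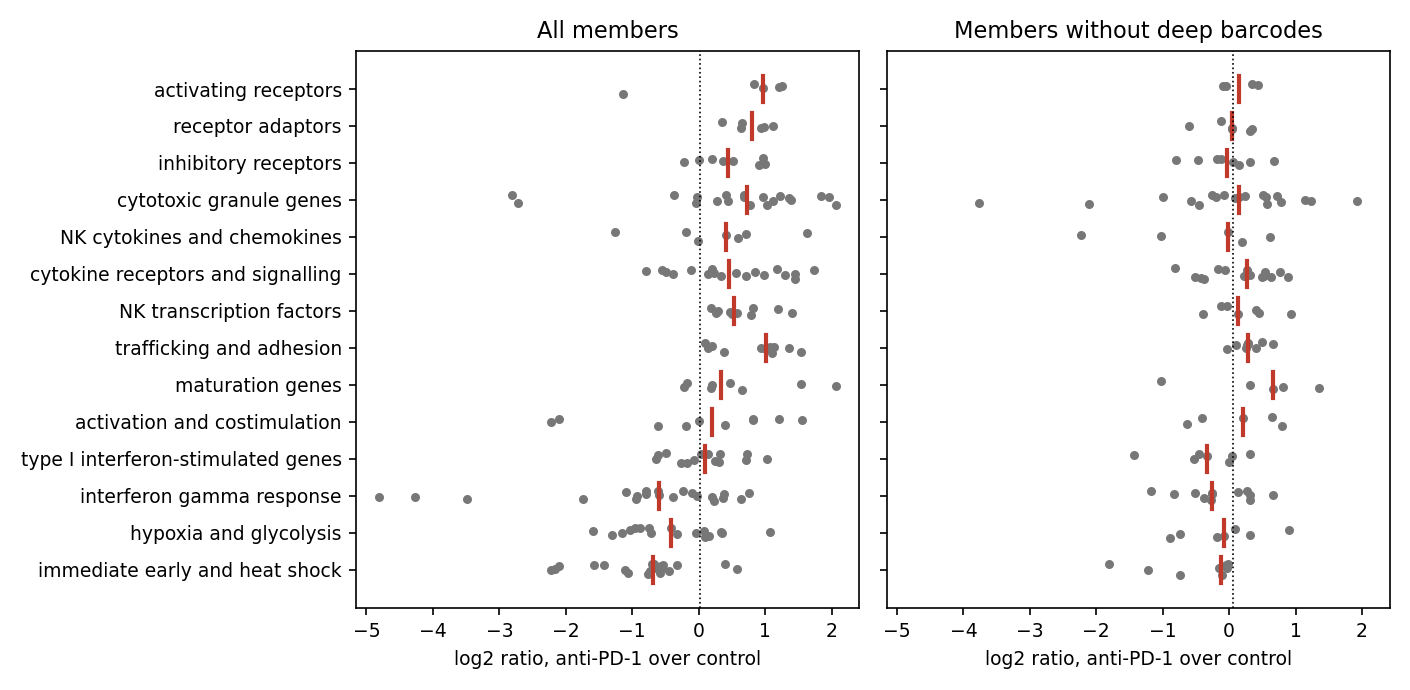
Log2 ratio of anti-PD-1 over control (x) for each measured gene (grey points) of the gene lists, without the genes of the member rule, with the list median (red bar) and the median of all measured genes (dotted line); all members left, members without deep barcodes right. Receptor, adaptor and trafficking medians lie between 0.44 and 1.02 on the left and between -0.03 and 0.28 on the right.

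Most of the highest ratios stayed past 2-fold without deep barcodes, whereas the lowest came from genes that were not measured there. Of the 10 highest log2 ratios over all members, Serpinb2, Tspoap1, Sulf2, Gzma, Cd27, Gzmb, Cd2, Ankle1, Cst7 and Nup210, 7 were measured and past 2-fold without deep barcodes. Cd2, an adhesion receptor of T and NK cells, had 1.14 (95% interval 0.44 to 1.89) there, Nup210, a nucleoporin, 1.11 (95% interval 0.66 to 1.59), and Sulf2, an extracellular sulfatase, 1.15 (95% interval 0.21 to 2.21). Serpinb2 had 46 UMIs in anti-PD-1 and 7 UMIs in control members, 0 of them outside deep barcodes. The 10 lowest were Col1a2, Col1a1, Cxcl5, Postn, Bgn, Crabp1, Cxcl9, Mmp2, Rarres2 and Iigp1, among them the collagen and matrix genes of fibroblasts. Col1a1 had 15 UMIs in anti-PD-1 and 1370 UMIs in control members, and 9 UMIs in anti-PD-1 and 20 UMIs in control without deep barcodes, so none of the 10 was measured without them. Fibroblast genes summed to 4414 CPM in anti-PD-1 and 13031 CPM in control members, with all 6 detected, and to 685 CPM in anti-PD-1 and 597 CPM in control without deep barcodes.

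Markers of other cells were present at varied levels. Over 13 T cell genes outside the rule the sum was 1158 CPM in anti-PD-1 and 732 CPM in control members, most of it from Trbc1, with 5 genes at 0 in anti-PD-1 and 1 in control. Without deep barcodes it was 2271 CPM in anti-PD-1 and 2462 CPM in control. The 5 erythroid genes summed to 62.0 CPM in anti-PD-1 and 552 CPM in control, and to 82.4 CPM in anti-PD-1 and 721 CPM in control without deep barcodes. B cell genes summed to 18.1 CPM in anti-PD-1 and 18.9 CPM in control, neutrophil genes to 49.1 CPM in anti-PD-1 and 69.2 CPM in control, and dendritic genes to 43.9 CPM in anti-PD-1 and 44.1 CPM in control. Without deep barcodes, neutrophil genes summed to 72.1 CPM in anti-PD-1 and 174 CPM in control, and dendritic genes to 30.9 CPM in anti-PD-1 and 74.6 CPM in control. Endothelial genes summed to 253 CPM in anti-PD-1 and 180 CPM in control, and to 479 CPM in anti-PD-1 and 472 CPM in control without deep barcodes. Macrophage and monocyte genes summed to 1767 CPM in anti-PD-1 and 1773 CPM in control, and to 1334 CPM in anti-PD-1 and 1716 CPM in control without deep barcodes. The part of these transcripts in the differences above was not tested.

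NK members were set beside T cells, gated by at least 2 UMIs of Cd3d, Cd3e and Cd3g and 0 of the NK genes of the rule and C1qa, which left 41 T cells in anti-PD-1 and 68 in control. The gate kept out T cells with an NK-gene UMI, and its effect on the contrasts below was not tested. At least 2 NK-gene UMIs and a Cd3 UMI were held by 9 barcodes in anti-PD-1 and 74 in control. Gzma had 3 UMIs in anti-PD-1 and 0 in control T cells, and Gzmc had 0 CPM in anti-PD-1 and 149 CPM in control T cells. Both stood far above these gated T cells in the members. Gzmb was in T cells too, at 3788 CPM in anti-PD-1 and 1546 CPM in control, a log2 ratio of 1.29 (1.02 to 1.57), in the direction seen in the members. Pdcd1 stood at 368 CPM in anti-PD-1 and 714 CPM in control T cells and 36.2 CPM in anti-PD-1 and 4.20 CPM in control NK members. Lag3 stood at 92.0 CPM in anti-PD-1 and 722 CPM in control T cells. Prf1 had 123 CPM in anti-PD-1 and 596 CPM in control T cells, a log2 ratio of -2.28 (-3.54 to -1.23), opposite to the members, and rests on 8 UMIs in anti-PD-1 and 76 in control T cells. The T cells of the 2 libraries held different subsets, with a UMI of Cd8a or Cd8b1 and none of Cd4 in 15 anti-PD-1 and 42 control cells. The share of a subset and the level per cell cannot be told apart in these sums.

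**Figure D5:**
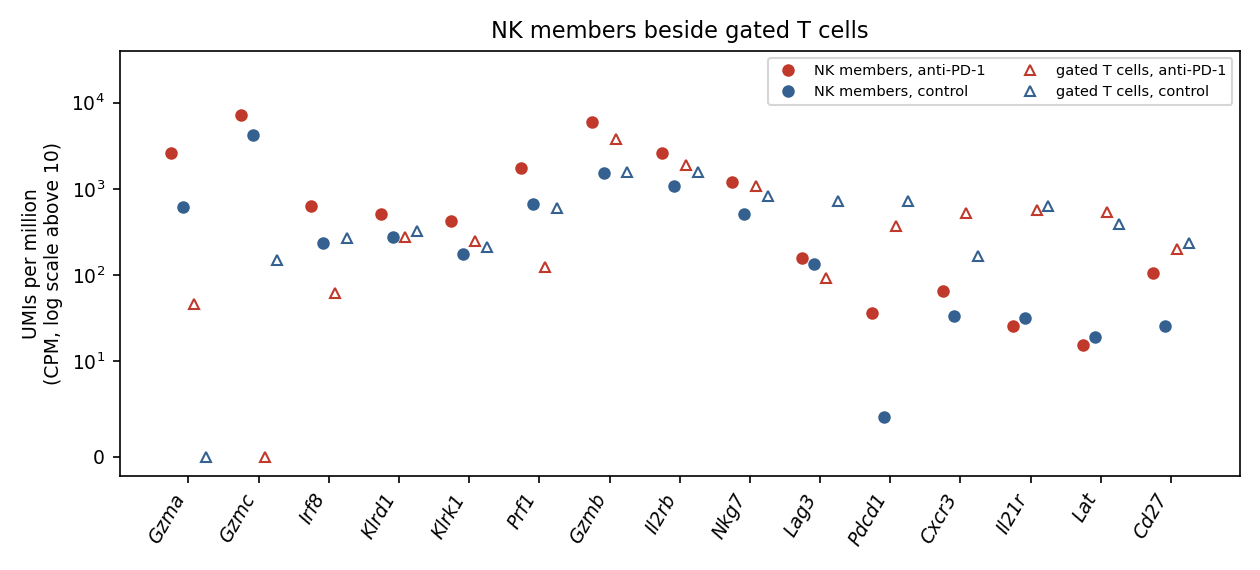
Level in CPM (log scale above 10) of 15 genes in NK members (filled circles) and gated T cells (open triangles), anti-PD-1 in red and control in blue. Gzma and Gzmc stand above the T cells in the members of both libraries, whereas Pdcd1, Il21r and Lat stand below them.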

How the data were processed

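Tumour cells were profiled with a probe-based 10x Genomics Flex kit, per the labels' protocol, which also names a 3′ protocol, in 1 anti-PD-1 and 1 control library. The deposited matrices hold counts, whole UMI numbers per gene and barcode that were not normalized, per the file headers, over 19070 genes. The submitters' processing notes name Cell Ranger 7.0.1 and mm10, and the matrix headers Cell Ranger 9.0.1. The matrices hold 9423 barcodes and 115407230 UMIs in anti-PD-1 and 8441 barcodes and 113268618 UMIs in control, and no barcode has under 494 UMIs in anti-PD-1 or 493 in control. Doublets were not called; deep members were left out as an alternative.

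Member UMIs were summed per library in Python 3.11.15 (numpy 2.4.6, scipy 1.17.1, pandas 2.3.3) and divided by the members' total to give CPM. Intervals at 95% are exact Poisson (CPM), exact binomial (shares and log2 ratios) or Newcombe (difference of shares). Against 0 UMIs, a ratio is a bound at a floor of 3 counts. A gene counted as measured from 50 UMIs over both libraries, and over 2-fold was the call. The interval code was tested on simulated counts. Named genes were the 10 highest and 10 lowest ratios (without genes over 5 times higher in macrophages, neutrophils or tumour-marker barcodes), the leading 15 over other barcodes, up to 8 genes per list with those past 2-fold, and a fixed set. Members, lists and rules were chosen with earlier results of these data known. Expected shares at 1000 UMIs are exact hypergeometric, over barcodes of at least that depth. Some genes of the lists are not reported here. Promoter sequences are RefSeq's (GRCm38.p6), and coding identity is from global alignment of the longest reading frames of GENCODE M21 transcripts.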

Additional observations from a re-analysis of the deposited data

Results flagged for a closer look

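For 3 genes picked for a closer look, the difference between the libraries ran in opposite directions in NK members and in gated T cells. They are not a full count of such genes, as Pdcd1 also ran in opposite directions, on few member UMIs. The difference between the 2 cell types was not tested, nor was the effect of keeping T cells with an NK-gene UMI out of the gate. Irf8 had a log2 ratio of anti-PD-1 over control of 0.94 in NK members without deep barcodes and -2.12 in T cells. Prf1 had 0.79 in such members and -2.28 in T cells. Serpinb9 had 0.72 in such members and -1.10 in T cells. The T cell values rest on 41 cells in anti-PD-1 and 68 in control, and on 4 Irf8 UMIs in anti-PD-1 and 34 in control. Of these T cells, 15 in anti-PD-1 and 42 in control were gated as CD8 T cells, so their subsets differed. In tumour-marker barcodes Irf8 stood at 15.5 CPM in anti-PD-1 and 30.6 CPM in control, and Prf1 at 8.78 CPM in anti-PD-1 and 15.7 CPM in control.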

How the results depend on the processing

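Of 239 summary values under alternatives, 188 kept their main value within its spread or 1.5 times, and 51 moved. Over all members 177 genes were over 2-fold higher and 166 lower. With at least 1 NK-gene UMI, 84 genes were over 2-fold higher, and list medians were 0.0888 for receptor adaptors, -0.30 for inhibitory receptors, 0.0314 for NK transcription factors and -0.45 for immediate early and heat shock, and the turned log2 ratio was Pdcd1 -0.85. With at least 3 NK-gene UMIs, 55 genes were over 2-fold higher and 35 genes were over 2-fold lower, and list medians were 0.12 for receptor adaptors, 0.16 for cytotoxic granule genes, -0.30 for immediate early and heat shock and -0.32 for cell cycle, and the turned log2 ratios were Ddit4 0.17, Egr1 0.74 and Vegfa 0.13. Under the stricter rule, 18 genes were over 2-fold higher and 6 genes were over 2-fold lower, and list medians were 0.0187 for receptor adaptors, -0.0448 for cytotoxic granule genes, -0.18 for NK transcription factors and 0.63 for immediate early and heat shock, and the turned log2 ratios were Ccl4 2.49, Ctsw -0.0774, Emid1 -0.44, Itgal -0.0800, Myb -0.12, Nr4a1 0.32, Psmb10 0.44, Slamf7 -0.24, Sulf2 -0.0914, Vegfa 0.32 and Zfp36 1.91. Without deep barcodes, 42 genes were over 2-fold higher and 27 genes were over 2-fold lower, and list medians were 0.0369 for receptor adaptors, 0.14 for cytotoxic granule genes, 0.13 for NK transcription factors and -0.12 for immediate early and heat shock, and the turned log2 ratio was Egr1 0.90. With Cd3 UMIs allowed (also chosen after seeing the data), 102 genes were over 2-fold higher, and list medians were 0.18 for cytotoxic granule genes, 0.23 for NK transcription factors and 0.12 for cell cycle, and the turned log2 ratio was Pdcd1 -1.43. Without Klra4 in the rule (chosen after seeing the data), 35 genes were over 2-fold higher and 29 genes were over 2-fold lower, and list medians were 0.15 for receptor adaptors, 0.11 for cytotoxic granule genes, -0.27 for immediate early and heat shock and 0.13 for cell cycle, and the turned log2 ratios were Egr1 0.82 and Vegfa 0.11. With members thinned to 1000 UMIs, 17 genes were over 2-fold higher and 7 genes were over 2-fold lower, and list medians were 0.0423 for receptor adaptors, 0.35 for interferon gamma response and -0.44 for immediate early and heat shock, and the turned log2 ratios were Ddit4 0.21, Egr1 0.78, Slamf7 -0.18 and Vegfa 0.24. With members weighted equally, list medians were 0.0797 for receptor adaptors, 0.21 for cytotoxic granule genes, 0.17 for NK transcription factors, -0.25 for immediate early and heat shock and 0.31 for cell cycle, and the turned log2 ratios were Emid1 -0.0269 and Vegfa 0.36. With genes of at least 20 UMIs, 402 genes were over 2-fold higher and 442 genes were over 2-fold lower. With genes of at least 200 UMIs, 41 genes were over 2-fold higher and 17 genes were over 2-fold lower, and list medians were 0.22 for interferon gamma response and -0.46 for cell cycle. Without the member highest in each gene, the turned log2 ratios were Egr1 0.84 and Vegfa 0.18. As a share of barcodes under the tumour-gene limit, members differed by 1.26 percentage points, and with Cd3 UMIs allowed by -0.270 points. Of 2052 values of named genes, 1377 stayed, 648 moved and 27 turned, the turned ones given above. Over 13 alternatives the log2 ratio of Gzma ranged over 0.76 to 2.12, of Gzmb 0.99 to 2.01, of Gzmf -3.50 to -2.01 and of Gzmg -3.80 to -2.66. Deep barcodes make up unequal parts of the 2 all-member totals, as given above, and the causes of these changes were not tested. No paired analysis was possible because each group has 1 library, and for the same reason no replicate could be left out. Some lists had under 3 measured genes under an alternative and then gave no median. Depth limits low genes: many receptors fell below 50 UMIs.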
